A study of Mus musculus with 2 samples.

Results

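The enzymes that modify and cross-link collagen were followed through the cells of a congested mouse liver. The 10 genes examined were chosen by symbol: the lysyl oxidase Lox and its relatives Loxl1, Loxl2, Loxl3 and Loxl4, the lysyl hydroxylases Plod1, Plod2 and Plod3, and the catalytic subunits P4ha1 and P4ha2 of prolyl 4-hydroxylase. They are 10 of the 28200 gene names listed in either library, and all 10 are listed in both. Liver cells were captured with BD Rhapsody, a microwell system for single-cell RNA sequencing, from 1 mouse per genotype. One genotype label reads Ctgffl/fl, with the floxed Ctgf alleles alone, and serves as control. The other reads Cdh5-CreERT2; Ctgffl/fl, in which an inducible Cre under the endothelial Cdh5 promoter deletes Ctgf, now named Ccn2, a matricellular protein. Both animals, described in the labels as a male knockout and its littermate, carried the floxed alleles and underwent pIVCL, a partial inferior vena cava ligation, which impedes the outflow of blood from the liver. The labels give both libraries the same batch, and no age, day after ligation or inducing agent.

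Fibrillar collagen gains its strength after it has been translated. Prolyl 4-hydroxylase stabilises the triple helix in the endoplasmic reticulum, lysyl hydroxylases prepare lysines for glycosylation and cross-linking, and the secreted copper enzymes of the lysyl oxidase family then oxidise lysines so that neighbouring molecules join covalently. In injured liver these steps are known chiefly from activated stellate cells, the retinoid-storing pericytes that turn into contractile scar-forming cells, and from portal fibroblasts. Cross-linked collagen is stiffer and resists breakdown.

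Titles and genotype labels disagree, since the Cre carrier bears a control title. Library names follow the genotype, which is used here for the terms control-labelled and knockout-labelled. Endothelial Ccn2 stood at 928 CPM, the unit of all levels here (a gene's counts in a class, scaled by all counts of that class), in the control-labelled library and 5.12 CPM in the knockout-labelled library, in the direction of the genotype labels. The 10000 barcodes of each library summed to 106208933 counts (control-labelled) and 129802501 counts (knockout-labelled), and 2 barcode indices occur in both. After filtering, 7917 and 8799 cells were kept. Cells were assigned to classes by a score over marker genes of each type, and class names stand for cells like that type by those markers alone. With 1 library per label there is no replicate, so no test was possible, and animal, surgery and genotype cannot be told apart. All intervals are 95% intervals of counting error. Differences of at least 1.5-fold are called lower or higher by size alone and are read against the share of all measured genes past the same fold.

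The mesenchymal cells fell into 3 gates. Stellate cells with a low contractile score numbered 274 in the control-labelled library and 421 in the knockout-labelled library. Contractile mesenchymal cells, past the same mesenchymal markers but with high smooth muscle or myofibroblast genes, numbered 289 and 93. The stellate markers entered no gate. The stellate class is made of the mesenchymal cells under both the contractile and the portal fibroblast cut. The remaining gate, for portal fibroblast markers, held only 27 and 27 cells. Those 27 cells carried Thy1 at 184 and 219 CPM, Dpt at 461 and 506 CPM and Entpd2 at 31.0 and 41.8 CPM. Other markers of the gate differed more between the libraries. Cd34 stood at 266 and 71.0 CPM, Clec3b at 38.3 and 0 CPM and Mfap4 at 244 and 742 CPM. Pi16 stood at 0 and 2.09 CPM, and Gli1 was at 0 in both libraries. Acta2, a contractile gene, stood at 4945 and 3253 CPM, so the cells are named only by the gate. Whether the gate held the same kind of cells in both libraries was not tested. The contractile score is a range with a cut in it: 68 of 563 and 89 of 514 stellate and contractile cells lay within 0.05 of that cut.

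Across the liver the 10 genes ranged from largely mesenchymal to widely expressed. In the control-labelled library, 8 of the 10 genes (the 5 lysyl oxidases, Plod2, P4ha1 and P4ha2) were highest in the stellate or contractile class among the 11 classes with at least 50 cells in both libraries. The exceptions were Plod1, highest in Kupffer cells, and Plod3, highest in monocytes and monocyte-derived macrophages. A highest rank did not mean absence elsewhere. P4ha1 in Kupffer cells reached 57.4% (control-labelled) and 70.4% (knockout-labelled) of its own highest level. Loxl3 in sinusoidal endothelial cells reached 24.0% and 32.9% of its own. B and T cells, which should lack the lysyl oxidases, give the background: Lox was at 0 and 0.720 CPM there in the control-labelled library and at 0.889 and 0 CPM in the knockout-labelled library.

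**Figure D1:**
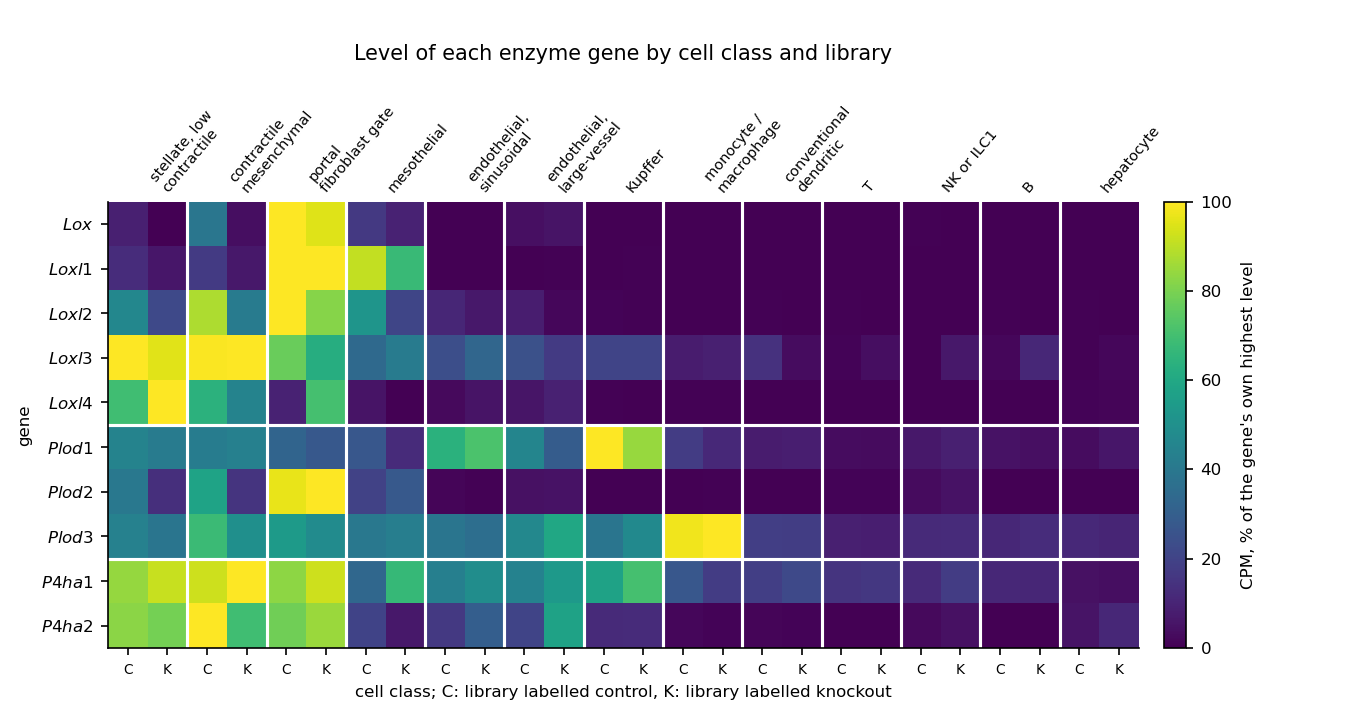
Level of each gene (vertical) in 13 cell classes of both libraries (horizontal; C, control-labelled library; K, knockout-labelled library), as a percent of that gene's own highest level, so that colours compare classes within a gene and not genes with each other. Lox, Loxl1, Loxl2 and Plod2 are brightest in the portal fibroblast gate, Plod1 in Kupffer cells and Plod3 in monocytes and macrophages; the portal fibroblast gate holds 27 cells in each library and the mesothelial class 53 and 17.

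The lysyl oxidases share a catalytic domain in which 3 histidines hold the copper ion. The stretch of 33 bases that encodes this site is shown for the 4 relatives of Lox, with the histidine codons in capitals, because it is what makes these genes 1 family; each stretch crosses an exon junction, so its coordinates span an intron. Sequences and positions are from GENCODE M21 on GRCm38.
Loxl1: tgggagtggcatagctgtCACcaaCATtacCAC
Loxl2: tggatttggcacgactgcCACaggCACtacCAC
Loxl3: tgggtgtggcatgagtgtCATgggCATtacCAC
Loxl4: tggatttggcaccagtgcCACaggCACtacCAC
They lie at chr9:58293720-58294381 on the minus strand (exons 3 to 4 of Loxl1), chr14:69682316-69689037 on the plus strand (exons 10 to 11 of Loxl2), chr6:83049995-83050125 on the plus strand (exons 10 to 11 of Loxl3) and chr19:42598807-42599899 on the minus strand (exons 11 to 12 of Loxl4). Loxl2 and Loxl4 share 31 of the 33 bases (93.9%), whereas Loxl1 shares 22 with Loxl2 and 21 with Loxl4. The longest exact run shared by the main transcripts of any pair among the 10 genes is 32 bases, between Lox and Loxl1, and over all annotated transcripts it is 47 bases, between Loxl2 and Plod3. Whether reads of such runs were split between genes was not tested.

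Lox, the founding lysyl oxidase, which acts on collagen and elastin, showed the widest gap between the libraries. In stellate cells with a low contractile score it stood at 95.1 CPM (83.8 to 108, from 252 counts) in the control-labelled library and 2.79 CPM (1.39 to 5.0, from 11 counts) in the knockout-labelled library. In contractile mesenchymal cells it stood at 433 CPM (413 to 454) and 41.0 CPM (29.0 to 56.3). The knockout-labelled library was lower in both classes, with intervals far apart, and the log2 ratios were -5.09 (-6.11 to -4.23) and -3.40 (-3.91 to -2.94). Of 9515 genes measured in the stellate class, 7 had a lower ratio than Lox. A Lox transcript was found in 24.1% of stellate cells of the control-labelled library and 2.38% of those of the knockout-labelled library, and with every cell thinned to 3000 counts in 13.1% (9.37 to 17.7, exact binomial) and 0.713% (0.147 to 2.07). The thinned share in T cells was 0 of 235 and 0 of 309 cells, with upper exact binomial bounds of 1.56% and 1.19%. By level, the 2.79 CPM of stellate cells in the knockout-labelled library lay above Kupffer cells, at 0.931 CPM (0.597 to 1.39), and its interval overlapped that of B cells, at 0.889 CPM from 1 count. Median depths were 7594 and 7935 counts in these stellate cells, and 5053 and 4926 in T cells.

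Lox was also unevenly spread among cells. In contractile cells of the control-labelled library it was found in 204 of 289 cells, with a median of 2 counts and a highest value of 76, and the 29 richest cells held 50.9% of the counts. In the knockout-labelled library 14 of 93 contractile cells had any. By summed counts the portal fibroblast gate differed from this: Lox stood there at 1103 CPM (1017 to 1195) in the control-labelled library and 1049 CPM (959 to 1145) in the knockout-labelled library, a log2 ratio of -0.07 (-0.25 to 0.10) with overlapping intervals. By cells, Lox was found in 25 of 27 (median 11 counts) and 16 of 27 (median 8 counts), at median depths of 18788 and 13423 counts. The 3 richest cells held 47.6% and 46.4% of its counts, a spread between cells that the intervals do not measure. The 27 cells of this gate held 502 of the 551 Lox counts (91.1%) in the 3 mesenchymal gates of the knockout-labelled library, against 605 of 2548 (23.7%) in the control-labelled library. The contractile value therefore rests on keeping this gate apart. With these cells counted among the others, a setting added after the data were seen, the contractile log2 ratio of Lox was -0.35 and that of stellate and contractile cells together -1.80, against -4.88 without them, while the stellate ratio was -4.54.

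Among stellate and contractile cells, with the portal fibroblast gate kept apart, the Lox difference was present at every level of contractile score. The 27 cells of that gate in each library, with 605 and 502 Lox counts, are in none of the bins. Bins with them counted in were not made. Stellate and contractile cells were divided into 5 bins of the score, from under 0.1 to 0.4 and over. Lox stood at 76.0, 110, 99.1, 224 and 484 CPM from the lowest to the highest bin in the control-labelled library, and at 3.25, 1.22, 4.37, 20.9 and 62.4 CPM in the knockout-labelled library. It was higher in the bins of high score in both libraries, and lower in the knockout-labelled library within each bin, with log2 ratios between -6.50 and -2.96. The lowest 2 bins of the knockout-labelled library rest on 3 and 2 counts, where the ratios have intervals of -6.86 to -2.94 and -9.56 to -4.61. Cells of equal score were still not equal in every marker: the contractile gene Acta2 had log2 ratios of -2.30, -3.38, -3.57, -3.77 and -1.89 from the lowest to the highest bin, and stood at 513 and 37.6 CPM in the bin from 0.3 to 0.4.

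**Figure D2:**
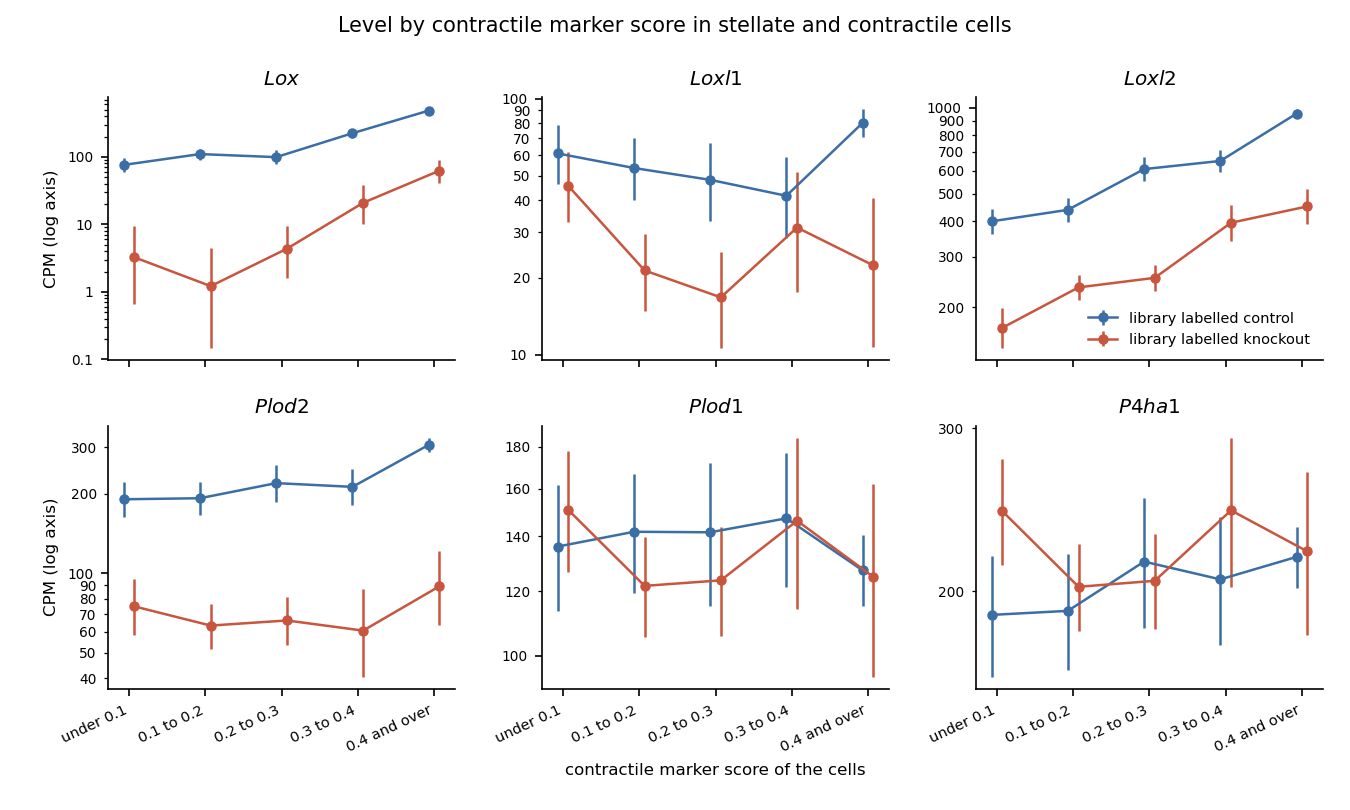
Level in CPM (vertical, log axis) of 6 genes in stellate and contractile cells grouped by contractile marker score (horizontal), for the control-labelled library (blue) and the knockout-labelled library (red); points are summed counts of the cells in a bin and bars are 95% counting intervals. Lox, Loxl2 and Plod2 are lower in the knockout-labelled library in all 5 bins, whereas the Plod1 intervals overlap in all 5. Cells of the portal fibroblast gate are left out.

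Loxl2, a secreted enzyme best known for cross-linking the collagen IV of basement membranes, was the most counted member of its family. It stood at 470 CPM (444 to 497) and 226 CPM (211 to 241) in stellate cells and at 893 CPM (864 to 924) and 422 CPM (381 to 466) in contractile cells. The knockout-labelled library was lower in both, by similar amounts, with log2 ratios of -1.06 (-1.18 to -0.93) and -1.08 (-1.24 to -0.93). Across the 5 score bins it stood at 399, 438, 609, 650 and 953 CPM in the control-labelled library and at 169, 234, 253, 395 and 450 CPM in the knockout-labelled library. The order of bins was thus the same in both libraries, at a lower level in the knockout-labelled library. In the portal fibroblast gate it stood at 1018 and 831 CPM, with the log2 ratio at -0.29 (-0.48 to -0.10), and within 1.5-fold. With each cell thinned to 3000 counts, 65% and 46.3% of stellate cells and 88.6% and 64.5% of contractile cells had a Loxl2 transcript, against 2.55% and 0.647% of T cells.

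Loxl1, which cross-links elastin in elastic fibres, was lower in the knockout-labelled library in stellate cells, at 54.7 CPM (46.2 to 64.4) and 25.4 CPM (20.7 to 30.9), a log2 ratio of -1.11 (-1.49 to -0.73). In contractile cells it stood at 72.7 and 27.0 CPM, with the log2 ratio at -1.43 (-2.08 to -0.84) from 284 and 25 counts. Across the score bins, from the lowest to the highest, its log2 ratio was -0.42 (-1.03 to 0.18), -1.33, -1.52, -0.41 (-1.40 to 0.51) and -1.85 (-2.93 to -0.95). The interval spans 0 in the lowest bin and in that from 0.3 to 0.4, and the ratios have no order with the score. In the portal fibroblast gate Loxl1 stood at 427 and 426 CPM, with no difference beyond counting error. Counting the 27 cells of that gate among the contractile cells turned the contractile ratio of Loxl1 to 0.46.

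Loxl3 and Loxl4 did not share the pattern. Loxl3, whose loss in mice disturbs palate and spine, stood at 63.8 CPM (54.5 to 74.2) and 60.9 CPM (53.5 to 69.1) in stellate cells and at 63.5 and 63.6 CPM in contractile cells. The intervals overlap in both classes, with log2 ratios of -0.07 (-0.36 to 0.23) and 0.00 (-0.43 to 0.42). Loxl4, the close relative of Loxl2, stood at 26.8 CPM (20.9 to 33.8) and 38.6 CPM (32.7 to 45.2) in stellate cells. It was higher in the knockout-labelled library by less than 1.5-fold there, with a log2 ratio of 0.53 (0.11 to 0.95), and stood at 24.8 and 17.3 CPM in contractile cells, from 97 and 16 counts. Its stellate ratio was past 1.5-fold under 5 alternative settings and 0.05 when cells were thinned to 3000 counts.

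Of the lysyl hydroxylases, Plod2 differed and Plod1 did not. Plod2 encodes the enzyme that hydroxylates lysines of the collagen telopeptides and so sets the stable type of cross-link. It stood at 199 CPM (182 to 217) and 67.0 CPM (59.2 to 75.6) in stellate cells, and at 288 CPM (271 to 305) and 74.4 CPM (57.9 to 94.2) in contractile cells. The knockout-labelled library was lower in both, with log2 ratios of -1.57 (-1.79 to -1.35) and -1.95 (-2.32 to -1.60). The contractile value depended on the portal fibroblast gate: it was -0.49 with those cells counted in. Across the score bins Plod2 stood at 191, 192, 219, 212 and 306 CPM in the control-labelled library and at 74.8, 63.3, 66.2, 60.6 and 89.2 CPM in the knockout-labelled library. It varied less with the score than Lox did, and the knockout-labelled library was lower in each bin, with log2 ratios between -1.81 and -1.35. In the portal fibroblast gate Plod2 stood at 478 CPM (422 to 539) and 495 CPM (434 to 562), with overlapping intervals.

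Plod1, which hydroxylates lysines within the collagen helix, stood at 140 CPM (126 to 155) and 129 CPM (118 to 141) in stellate cells and at 131 and 136 CPM in contractile cells. Its intervals overlapped in both classes and in every score bin. Plod3, which both hydroxylates lysine and attaches sugars to it, stood at 51.3 and 45.4 CPM in stellate cells, with a log2 ratio of -0.18 (-0.51 to 0.16). In contractile cells it stood at 79.9 CPM (71.3 to 89.3) and 58.3 CPM (43.8 to 76.0), a log2 ratio of -0.46 (-0.90 to -0.04), within 1.5-fold.

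P4ha1 and P4ha2 encode the catalytic subunits whose hydroxyproline holds the collagen helix together, and neither was past 1.5-fold in any of the 3 mesenchymal gates. P4ha1 stood at 196 CPM (180 to 214) and 213 CPM (199 to 228) in stellate cells and at 215 CPM (201 to 230) and 233 CPM (203 to 266) in contractile cells, with log2 ratios of 0.12 (-0.04 to 0.28) and 0.11 (-0.11 to 0.33). P4ha2 stood at 38.5 and 36.8 CPM in stellate cells and at 46.6 and 32.4 CPM in contractile cells, the latter from 182 and 30 counts with a log2 ratio of -0.53 (-1.14 to 0.04). P4ha1 is a textbook target of hypoxia-inducible factors, which bind the core letters ACGTG or GCGTG. Both promoters are shown with every match to these cores on either strand in capitals, because a hypoxia list is described with the related genes. A window was at hand for 5 of the 10 members, and for none of Lox, Loxl1, Loxl2 and Plod2. Whether hypoxia had a part in the level of any member was not tested. Both sequences are RefSeq windows of 250 bases before to 50 after the gene start, on GRCm38.p6.
P4ha1: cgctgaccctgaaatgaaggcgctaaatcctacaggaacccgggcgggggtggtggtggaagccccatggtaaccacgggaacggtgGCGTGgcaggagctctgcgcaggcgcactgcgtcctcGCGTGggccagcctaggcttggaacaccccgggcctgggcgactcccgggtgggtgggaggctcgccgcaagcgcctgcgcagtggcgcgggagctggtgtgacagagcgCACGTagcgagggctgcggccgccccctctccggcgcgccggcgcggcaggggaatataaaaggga
P4ha2: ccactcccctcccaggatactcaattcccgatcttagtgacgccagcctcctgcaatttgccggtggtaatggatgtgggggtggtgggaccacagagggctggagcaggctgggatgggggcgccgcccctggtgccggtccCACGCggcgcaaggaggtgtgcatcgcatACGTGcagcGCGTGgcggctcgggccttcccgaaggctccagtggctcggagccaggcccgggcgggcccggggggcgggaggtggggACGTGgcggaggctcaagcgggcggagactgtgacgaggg
The windows are chr10:59323046-59323345 and chr11:54100674-54100973, both on the plus strand, with 3 matches for P4ha1 and 4 for P4ha2. The windows of Plod3, Plod1 and Loxl4, which are not printed, hold 4, 2 and 1 matches. Of the 32851 promoter windows in the same table, 43.8% hold at least 1 such match, 8.93% at least 3 and 3.86% at least 4. A match is a run of letters and says nothing of binding in these cells.

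Set beside all genes, 4 of the 10 members (Lox, Loxl1, Loxl2 and Plod2) were at least 1.5-fold lower in the knockout-labelled library in each of the stellate and the contractile classes, and 0 were higher. With the portal fibroblast gate cells counted in, the contractile count was 1, Loxl2 at -0.65. Among all genes measured in stellate cells 14.1% were lower by that fold and 7.01% higher. Among contractile cells the shares were 18.1% and 14.5%, and for both classes together, where the same 4 members were lower and 0 higher, 13.4% and 8.58%. The median log2 ratio of the 10 members was -0.14 in stellate cells and -0.53 in contractile cells, against -0.05 and -0.01 over all measured genes. The portal fibroblast gate had 0 of 9 measured members past the fold in either direction, where 32% of all measured genes were. Loxl4 there rests on 2 and 13 counts and was not measured. A thinned stellate or contractile cell held transcripts of a median of 3 members in the control-labelled library and 2 in the knockout-labelled library.

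**Figure D3:**
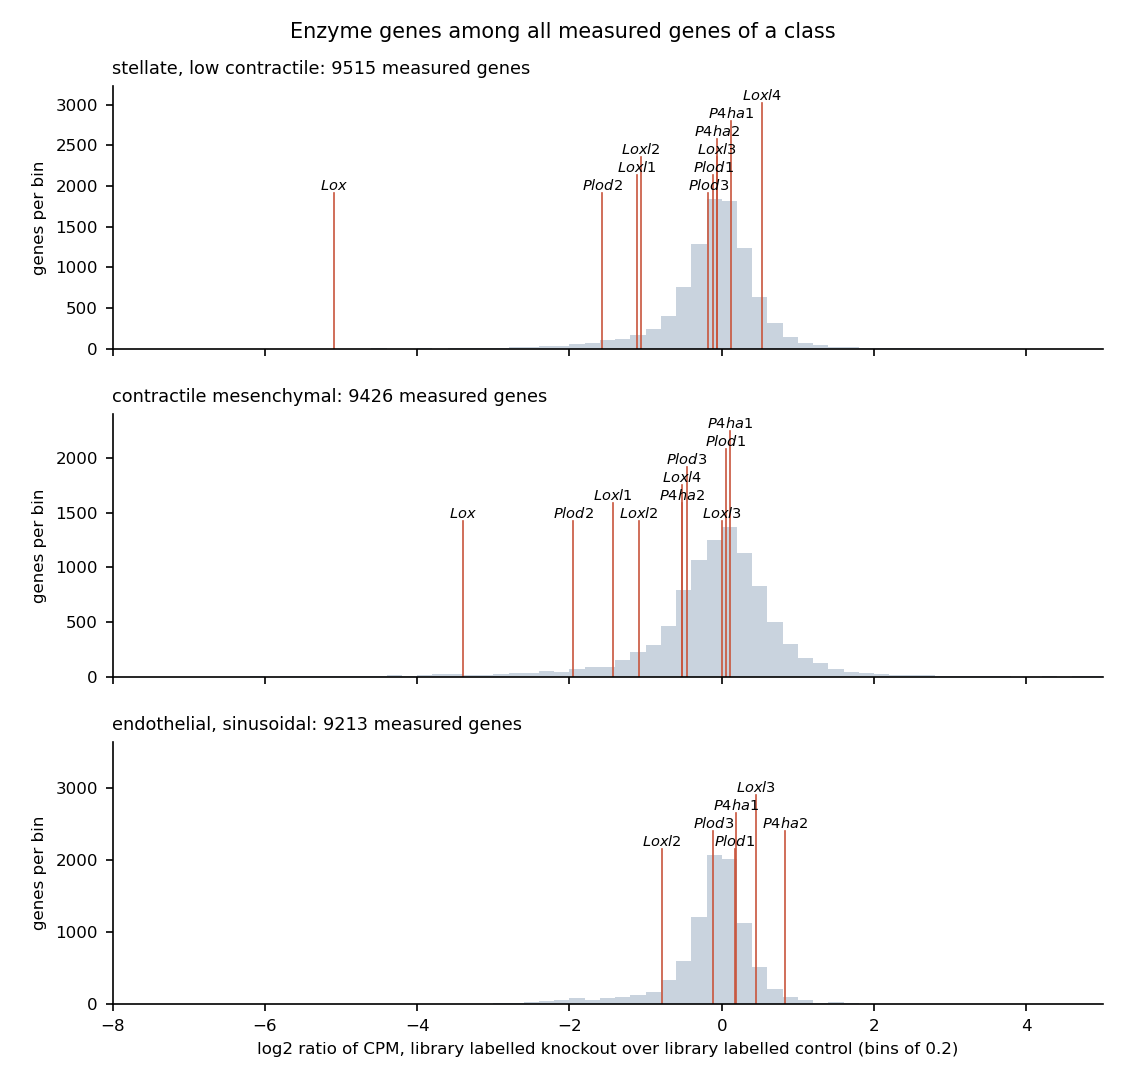
Number of measured genes (vertical) by log2 ratio between the libraries (horizontal, bins of 0.2) in 3 cell classes, with the measured members marked by red lines whose height carries no value. In the stellate class Lox stands at -5.09, far in the lower tail, Plod2 at -1.57, and the other members between -1.11 and 0.53.

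Other features of the mesenchymal cells moved with these differences, and their part in the result was not tested. The 8 contractile markers summed to 4410 CPM in stellate and contractile cells of the control-labelled library and 1294 CPM in the knockout-labelled library, and 7 of them were lower. Within the stellate class alone the same sum was 620 and 750 CPM, with Cnn1 and Actg2 at 0 in both, although Acta2 stood at 53.2 and 5.84 CPM. The 10 stellate markers summed to 13514 and 26119 CPM over both classes, with 9 higher, and to 18492 and 27322 CPM in the stellate class, with 7 higher. The 6 markers of cycling cells summed to 264 and 85.3 CPM in stellate cells and to 743 and 24.8 CPM in contractile cells, with 6 of 6 lower in each and Ccnb1 and Ube2c at 0 in the contractile cells of the knockout-labelled library. Of 8 Kupffer markers, 7 were lower in stellate cells, with sums of 1287 and 732 CPM. Median depth was 12327 and 9014 counts in contractile cells.

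In endothelial cells, the cells that the Cre targets, Loxl2 was at least 1.5-fold lower and P4ha2 higher, of 6 members measured; 14.6% of all measured genes were lower and 5.95% higher. The count depends on the filter: P4ha2, at 7.91 and 14 CPM, passed it only through the library where it is high, and Plod2, at 9.34 and 3.52 CPM, was just under it. Sinusoidal endothelial cells numbered 1845 and 3528. Loxl2 stood in them at 110 CPM (105 to 116) in the control-labelled library and 63.9 CPM (61.1 to 66.9) in the knockout-labelled library, a log2 ratio of -0.79 (-0.88 to -0.69). It was lower in the knockout-labelled library in each of 4 bins of the sinusoidal marker score, with log2 ratios of -0.42 (-1.01 to 0.12), -1.18, -1.43 and -0.78 from the lowest to the highest bin, so the interval spans 0 in the lowest. The Loxl2 level of sinusoidal cells was 15.3% and 24.3% of that in stellate and contractile cells of the same library, whereas the mesenchymal gene Dcn reached 1.24% and 0.384%. Scaling mattered over all endothelial cells: trimmed-mean and median-of-ratios scaling shifted every ratio by 0.16 and took Loxl2 from -0.74 to -0.58, just within 1.5-fold.

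P4ha2 in sinusoidal cells stood at 7.79 CPM (6.48 to 9.28) and 13.8 CPM (12.5 to 15.2), a log2 ratio of 0.83 (0.54 to 1.13). It was higher in the knockout-labelled library in each of the 4 score bins, although the interval spans 0 in the lowest, and counted as measured only through that library. Loxl3 followed at 15.3 and 21.0 CPM, with the log2 ratio at 0.45 (0.24 to 0.67), within 1.5-fold. The abundant members differed little: Plod1 stood at 198 and 223 CPM, P4ha1 at 100 and 114 CPM, and Plod3 at 45.6 and 42.3 CPM. Plod2 was under 10 CPM in both libraries, at 7.60 and 3.17 CPM, and Lox at 1.07 and 0.30 CPM.

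Large-vessel endothelial cells, only 164 and 60, had Lox above the background of lymphocytes, unlike sinusoidal cells, at 43.9 CPM (34.7 to 54.8) and 59.0 CPM (40.6 to 82.8). The intervals overlap. In the knockout-labelled library this was the highest Lox level of the 11 classes, next to 41.0 CPM in contractile cells, whose interval overlaps it. Loxl2 stood there at 81.6 CPM (68.9 to 96.0) and 16.1 CPM (7.35 to 30.5, from 9 counts), a log2 ratio of -2.34 (-3.50 to -1.38). P4ha2 stood at 9.57 and 26.8 CPM from 17 and 15 counts. Of 8 measured members 3 were past 1.5-fold, Loxl2 and Plod1 lower and P4ha2 higher, near the 33.4% of all measured genes past it. P4ha2 was measured only through the knockout-labelled library.

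**Figure D4:**
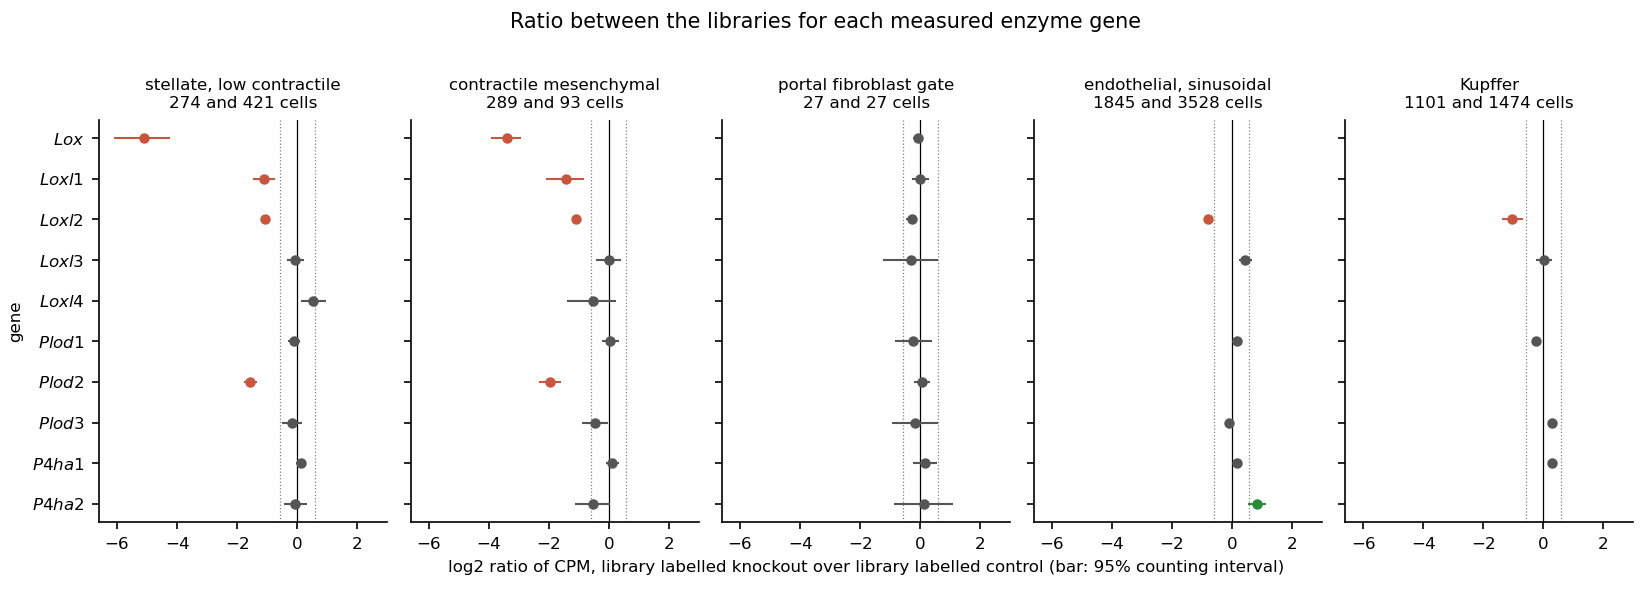
Log2 ratio of CPM between the knockout-labelled library and the control-labelled library (horizontal) for each measured member (vertical) in 5 cell classes; bars are 95% counting intervals, dotted lines mark 1.5-fold, red points are lower and green points higher by at least that fold. Lox, Loxl1, Loxl2 and Plod2 are red in the stellate and contractile classes, and 0 of 9 are coloured in the portal fibroblast gate.

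Outside the mesenchyme and endothelium, Plod1, Plod3 and P4ha1 were the most abundant members in Kupffer cells and in monocytes and monocyte-derived macrophages. In Kupffer cells Plod2 stood at 1.83 and 1.51 CPM and P4ha2 at 5.62 and 5.70 CPM. Loxl3, a lysyl oxidase, stood at 13.1 and 13.2 CPM there. Kupffer cells, the resident macrophages, had the highest Plod1 of the classes with at least 50 cells, at 311 CPM (302 to 320) and 263 CPM (257 to 269), and P4ha1 at 134 and 164 CPM. The Plod1 log2 ratio there was -0.24 (-0.30 to -0.19) and the P4ha1 log2 ratio 0.29 (0.22 to 0.37), both within 1.5-fold. Loxl2 was the only one of 5 measured members past the fold, at 10.8 and 5.28 CPM, where 6.62% of all measured genes were lower. It counted as measured only through the control-labelled library. It stood at 1.49% and 2.01% of the level in stellate and contractile cells, against 1.49% and 1.14% for Dcn, so it cannot be told apart from free RNA there, and its log2 ratio was -0.44 when cells of mixed lineage were kept, against -1.03. Monocytes and monocyte-derived macrophages, 970 and 298 cells, had the highest Plod3, at 115 CPM (107 to 123) and 117 CPM (107 to 128). Plod1 stood there at 55.2 and 35.8 CPM and P4ha1 at 63.2 and 41.4 CPM, log2 ratios of -0.63 (-0.91 to -0.35) and -0.61 (-0.87 to -0.35), where 15.2% of genes were lower and the median depth was 5867 and 11744 counts. T cells had P4ha1 at 35.3 and 37.4 CPM and B cells at 26.3 and 24.9 CPM. Hepatocytes had Plod1 at 10.2 and 19.2 CPM from 24 and 66 counts, where 10.2% of genes were higher. Mesothelial cells, 53 and 17, had Loxl1 at 388 and 289 CPM and Lox at 181 and 106 CPM, and the 17 are too few to compare.

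The genes that make, fold or organise the substrate were examined as lists, in stellate and contractile cells together. Of 7 measured fibrillar collagens, 5 were past 1.5-fold on the lower side and 0 on the higher, and their median log2 ratio was -1.50 against -0.02 over all genes, of which 13.4% were lower. Col1a1 stood at 3757 and 446 CPM, and Col3a1 at 4537 and 1602 CPM. Of 9 elastic fibre genes 6 were lower, with a median of -1.63, and Eln, which encodes the elastin that Lox and Loxl1 oxidise, stood at 196 and 18.5 CPM. Of 8 network collagens 5 were lower, with a median of -1.44, and Col4a1, the substrate of Loxl2, stood at 3767 and 1354 CPM. The libraries differ in their mix of stellate and contractile cells, which the pooled values carry. Within the stellate class alone the medians were -0.96 for fibrillar and -0.89 for network collagens. For elastic fibre genes the stellate median was -0.41, with 3 of 8 lower. Within contractile cells the medians were -1.18, -1.13 and -1.95 in the same order. The pooled medians also depend on the portal fibroblast gate: with its cells counted in they were -0.75 for fibrillar collagens, -0.48 for elastic fibre genes and -0.35 for network collagens. The elastic fibre median was also -0.74 with the filter at 100 counts and 50 CPM, -1.06 with thinning, and -2.41 with no filter beyond 1 count. The network collagen median was -0.84 with the stricter gate and -0.85 with mixed lineages kept.

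The counts of the other lists are to be read against the same shares of all genes, 13.4% lower and 8.58% higher. Of 11 measured hydroxylases and partners 3 were lower: P3h1, a prolyl 3-hydroxylase, at 43.5 and 20.1 CPM, Fkbp10, a partner of Plod2, at 88.5 and 44.6 CPM, and Colgalt1, a collagen galactosyltransferase, at 197 and 118 CPM. Of 10 chaperones and processing enzymes 3 were lower: Adamts2, the procollagen N-proteinase, at 418 and 183 CPM, Bmp1, which also activates Lox, at 57.2 and 33.1 CPM, and Serpinh1, the collagen chaperone, at 1253 and 811 CPM. The medians of both lists, -0.22 and -0.23, were small. Among 10 other cross-linkers and fibril organisers 2 were lower and 1 higher, the latter Tnxb, a tenascin of the dermis and other soft tissue, at 79.2 and 243 CPM. Of 5 genes of cofactor supply 1 was higher, the ascorbate transporter Slc23a2 at 23.2 and 36.8 CPM. Within the stellate and the contractile class alone 0 of 5 were higher, and Atox1 was lower in contractile cells. Of the chaperones and processing enzymes, 1 of 10 was lower within stellate cells and 3 of 9 within contractile cells. The shares of all genes lower there were 14.1% and 18.1%.

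Genes known to respond to hypoxia or to TGF-beta, 2 signals known to act on these enzymes, were read in the same way. Of 10 hypoxia-responsive genes 6 were lower and 0 higher; their median was -0.81: Adm stood at 541 and 164 CPM, Ldha at 203 and 98.4 CPM and Hk2 at 14.3 and 3.9 CPM. In the portal fibroblast gate, with 27 cells in each library, 6 of 10 hypoxia genes were lower, with a median of -0.65, where 16.6% of all measured genes were lower. Whether hypoxia or TGF-beta had a part in the levels of the members was not tested. Of 11 TGF-beta-responsive genes 4 were lower and 3 higher; their median was -0.20: Tgfb2 stood at 406 and 88.8 CPM and Tgfb3 at 141 and 36.8 CPM, while Ccn1 was higher, at 157 and 1277 CPM. In endothelial cells, where 14.6% of all measured genes were lower, the chaperone Fkbp10 stood at 22.6 and 2.41 CPM. Of 7 elastic fibre genes 4 were lower there, with a median of -0.74, among them Fbln5 and Fbln2, the latter at 268 and 29.5 CPM. The classes within the endothelial cells differed from this. Sinusoidal cells made up 1845 of 2089 endothelial cells in the control-labelled library and 3528 of 3604 in the knockout-labelled library. The libraries thus differ in their mix of endothelial classes, which the values over all endothelial cells carry. In sinusoidal cells 2 of 6 were lower, with a median of -0.07, against 13.3% of all genes. In large-vessel cells 1 of 7 was lower and 1 higher, with a median of -0.10, against 20.9% and 12.5% of all genes.

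**Figure D5:**
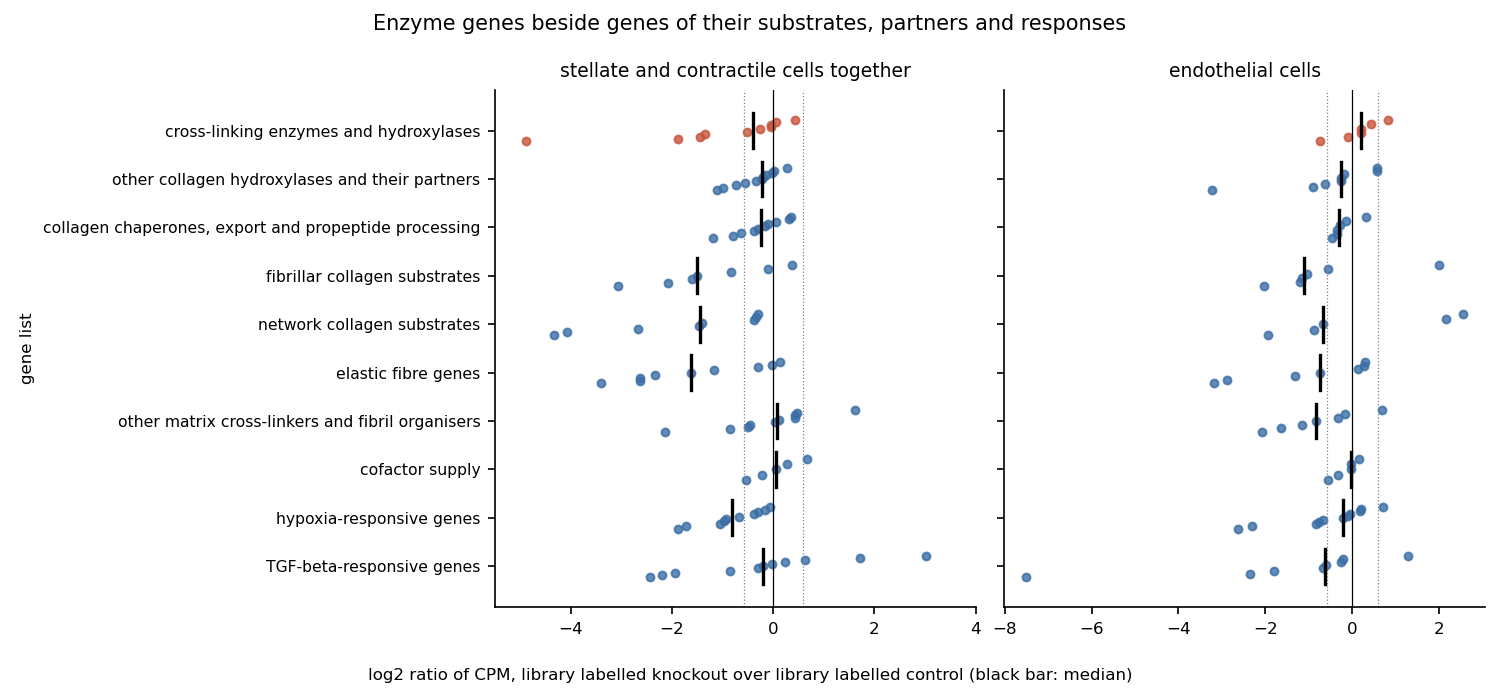
Log2 ratio of CPM between the libraries (horizontal; the 2 panels have different ranges) of each measured gene, by list (vertical), in stellate and contractile cells together and in endothelial cells; black bars are list medians and dotted lines mark 1.5-fold. In the left panel the medians of the collagen and elastic fibre lists lie between -1.63 and -1.44, that of the members at -0.39.

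The pattern of each gene over cell classes was compared with that of every other gene, as Pearson's r of log2(CPM + 1) over 25 points, each a class in a library with at least 50 cells. Points of 1 library share its depth and processing, so r is a description. The genes most like Lox were Plat (r = 0.95), Col5a2 (0.93) and Tgfb2 (0.91), and among the members Plod2 (0.85). Loxl2 was most like Pcolce (0.97), an enhancer of procollagen processing, Sparc (0.97), a collagen-binding protein, and Col4a1 (0.96). Loxl1 was most like Fam180a, Wnt5a and Fgf2 (0.96 each), Loxl3 like Nipa1 (0.92) and Loxl4 like Igsf10 (0.97). Plod1 was most like Rgl1 (0.94), Plod2 like Map1a (0.94), Plod3 like Ctbp2 (0.88), P4ha1 like Fhod1 (0.94) and P4ha2 like Kank2 (0.95). Lox and Loxl2 had a collagen gene among the 3 most like them, and the other 8 members had none.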

How the data were processed

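Livers were perfused with enzymes, hepatocytes were depleted by slow spinning, and a density gradient took away dead cells and erythrocytes before BD Rhapsody capture and DNBSEQ sequencing, per the labels' protocols. Raw counts by gene symbol and barcode were deposited, whole numbers with no normalization. GRCm39 is named in the submitters' processing notes. Not given in the sources used here are aligner, counter, cell calling and whether molecular identifiers were collapsed. If identifiers were not collapsed, the intervals are too narrow.

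The 10 members, the 9 lists of related genes and the marker lists were chosen with earlier results of these data known, and the cuts on scores were set after the scores had been seen. The filter on cells asked for 300 genes, 500 counts and a mitochondrial share of 25% or less. A marker score, the mean log count per 10000, was scaled to the mean of the 40 highest cells. A cell entered a lineage at 0.4 with at least 3 markers detected. Within mesenchymal cells the portal fibroblast score was cut at 0.4 and the contractile score at 0.3; within endothelial cells the sinusoidal score was cut at 0.5 and the large-vessel score at 0.4. No doublet caller was run: cells past 2 lineages, 1273 (control-labelled) and 1510 (knockout-labelled), were left out as possible doublets. Cells past no gate numbered 517 and 188.

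Counts were summed per class and library and expressed as CPM, with exact Poisson, conditional or binomial (Clopper-Pearson) intervals. In ratios, 3 counts stood in for 0. Measured genes had 20 or more counts in all and reached 10 CPM in 1 library. Shares of cells are also given with each cell thinned to 3000 counts. All members were described in every class of at least 50 cells. From each list the rule took up to 4 measured genes with the largest ratio past 1.5-fold, or else the 2 of highest CPM; only some are printed, picked after their values were seen. The 3 genes most like each member were taken among genes with at least 200 counts. A motif or sequence was read by position from GRCm38 references and no coordinate was converted. Alternatives are given in the closing section. Python 3.11.15, NumPy 2.4.6, SciPy 1.17.1 and pandas 2.3.3 were used, with edgeR 4.0.16 for trimmed-mean scaling only. The ratio code was tested on simulated data.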

Additional observations from a re-analysis of the deposited data

Results flagged for a closer look

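Plod1 stood out for going both ways. It was at least 1.5-fold higher in the knockout-labelled library in hepatocytes, with a log2 ratio of 0.92 (0.23 to 1.66, from 24 and 66 counts), and at least 1.5-fold lower in large-vessel endothelial cells, with a log2 ratio of -0.63 (-1.10 to -0.19), and in monocytes and monocyte-derived macrophages, with a log2 ratio of -0.63 (-0.91 to -0.35). The difference between these classes was not tested. In hepatocytes, 268 and 83 cells, 66.7% of all measured genes were past 1.5-fold and the median mitochondrial share was 1.23% and 11.9%. The median log2 ratio of all measured genes was -0.70 there. Hepatocyte Plod1 stood at 10.2 and 19.2 CPM and B cells at 15.4 and 12.4 CPM, with overlapping intervals in each library. Of all measured genes, 10.2% were higher in hepatocytes, 20.9% lower in large-vessel endothelial cells and 15.2% lower in monocytes and monocyte-derived macrophages.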

How the results depend on the processing

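No paired analysis was possible because each genotype label has 1 library. Of 16 alternatives (cell filter, marker gates, contractile cut, mixed lineages kept, thinning, mean of per-cell CPM, scaling, filter on low values and, added after seeing the data, 3 treatments of the portal fibroblast gate), Lox, Loxl2 and Plod2 kept their direction under all 16 in stellate, contractile and pooled cells. Stellate ratios ranged from -5.59 to -4.54 for Lox, -1.15 to -0.96 for Loxl2 and -1.70 to -1.43 for Plod2. Loxl1 was reversed in 1, at 0.46 in contractile cells with the portal fibroblast gate cells in the pool. That setting also left 1 member lower in contractile cells, gave 1 higher in stellate cells and 2 higher elastic fibre genes. Stellate members higher were 1 under the stricter cell filter, the lower contractile cut and both scalings. At 100 counts and 50 CPM the members' median was -0.93 in the pool, -0.62 in stellate and 0.29 in Kupffer cells, network collagens and elastic fibre genes lower were 3 each, cofactor genes higher 0, endothelial members higher 0 and Kupffer members lower 0. With no filter beyond 1 count, endothelial members were 4 lower and 2 higher (median 0.043), Kupffer members 3 lower and 1 higher, hypoxia genes 10 lower, other cross-linkers 4 lower, and other hydroxylases and network collagens 1 higher each. Endothelial members lower were 2 under the stricter gate and thinning, 3 with mixed lineages kept (median 0.014) and 0 under both scalings, with 2 higher and medians of 0.36 each. Kupffer members lower were 0 under the looser gate, thinning and mixed lineages kept. Network collagens lower were 3 under the stricter gate and mixed lineages kept. The causes were not tested. The median of the cofactor list changed sign under 6 alternatives, from -0.10 to 0.09. Depth limits Lox in the knockout-labelled library, with 11 and 38 counts in the 2 classes.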

Other observations

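In mesothelial cells Ccn2 stood at 504 CPM in the control-labelled library and 5.90 CPM (2 counts in 17 cells) in the knockout-labelled library, while stellate cells had 723 and 1026 CPM and the portal fibroblast gate 1315 and 2202 CPM. In the knockout-labelled library the 27 cells of the portal fibroblast gate held 41.6% of the Plod2 counts and 62.0% of the Loxl1 counts of the 3 mesenchymal gates, against 13.7% and 35.3% in the control-labelled library, from the same number of cells. The values rest on few cells: the 3 cells richest in Lox held 47.6% and 46.4% of its counts in that gate.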
